A study of Mus musculus with 19 samples.

Results

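The comparison set conventional dendritic cells type 1 (cDC1) against conventional dendritic cells type 2 (cDC2) where both subsets lacked Xbp1 and Ire1. Both subsets were sorted from mouse spleen and profiled by bulk RNA sequencing. The members are 6 of the 19 libraries: 3 of cDC1 and 3 of cDC2 labelled Xbp1-Ire1 KO, taken by name from the 2 tables of raw counts after joining them by gene symbol. The question was which differences between the subsets shrink, persist or appear when both genes are lost. For that, the same subset difference was measured in Xbp1 KO mice (3 cDC1 and 3 cDC2 libraries) and in WT mice (3 cDC1 and 4 cDC2 libraries). All mice carry the strain label C57BL6. Of the WT libraries, 4 are named for floxed Xbp1 and Ire1 alleles (fl-fl; 2 cDC1 and 2 cDC2) and 3 are named WT (1 cDC1 and 2 cDC2). The sources used here give no Cre driver, no deleted exons and no age or sex of the mice. Nor is it stated that replicates are separate mice, so p-values measure the spread between these libraries, which may be technical. Pairs of WT libraries differed more across the kinds of name than within 1 kind. The measure was the chi-square of their counts over genes per degree of freedom. In cDC1 it was 67.42 and 70.54 across kinds and 12.95 within fl-fl. In cDC2 it was 49.01 to 65.12 across kinds, 23.46 within fl-fl and 14.57 within those named WT. In the KO groups it was 8.9 to 35.56. The WT spread therefore includes the gap between the kinds.

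IRE1, encoded by Ern1 and called Ire1 in the labels, sits in the membrane of the endoplasmic reticulum (ER) and reports unfolded protein there. Its RNase removes a short intron from the Xbp1 transcript, and the spliced form encodes XBP1, a transcription factor for ER chaperones and for machinery of protein export and degradation. The same RNase can cleave other ER-bound transcripts, a process named regulated IRE1-dependent decay. A separate arm of the unfolded protein response runs through PERK, ATF4 and CHOP and governs amino acid synthesis, amino acid uptake and tRNA charging. In spleen, cDC1 are known for cross-presentation of antigen from dead cells, while cDC2 mainly activate CD4 T cells, and both subsets also mature without infection, switching on Ccr7 and related genes.

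Library totals were 11268349 to 16209469 counts for Xbp1-Ire1 KO cDC1 and 10606864 to 14649501 for Xbp1-Ire1 KO cDC2, and 10976556 to 14603380 over the other groups. Levels are given as counts per 1000000 counts (CPM) after TMM scaling. A subset difference is the log2 ratio of cDC1 over cDC2, so that a positive value means higher in cDC1, with its standard error (SE). A gene was called where the Benjamini-Hochberg adjusted p of edgeR's quasi-likelihood F test, fitted to all 19 libraries, was below 0.05 among 12185 tested genes. Immediate early genes, which respond quickly to handling of cells, summed to 11154 to 16150 CPM in Xbp1-Ire1 KO cDC1 and to 25856 to 33341 CPM in Xbp1-Ire1 KO cDC2. In WT they summed to 14958 to 19376 CPM in cDC1 and 17467 to 30707 CPM in cDC2. Within WT their mean log2 CPM split by kind of name. It was 7.94 and 7.81 in fl-fl cDC1 and 8.7 in cDC1 named WT. In cDC2 it was 7.94 and 8.03 in fl-fl and 9.09 and 9.18 in those named WT. In Xbp1 KO the immediate early genes summed to 26036 to 30164 CPM in cDC1 and 31547 to 39893 CPM in cDC2. The Xbp1 KO cDC1 libraries thus lay above those of Xbp1-Ire1 KO cDC1 with no overlap. Their part in the results below was not tested. In bulk RNA, fewer cells of a type within a sort and less RNA per cell cannot be told apart.

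The deleted genes came first. Xbp1 had 359, 346 and 312 CPM in Xbp1-Ire1 KO cDC1, against 61.9, 76.0 and 55.9 CPM in Xbp1-Ire1 KO cDC2. In WT it had 240, 150 and 147 CPM in cDC1 and 154, 98.3, 70.3 and 74.6 CPM in cDC2. The Xbp1-Ire1 KO cDC1 libraries held the highest Xbp1 levels and did not overlap with any other group. The subset difference was 2.39 ± 0.25 in Xbp1-Ire1 KO and 0.85 ± 0.22 in WT, and it grew by 1.54 ± 0.33 (edgeR, Benjamini-Hochberg adjusted p = 0.013). Ern1 had 72.6, 62.3 and 52.3 CPM in Xbp1-Ire1 KO cDC1, against 30.2, 20.6 and 21.3 CPM in Xbp1-Ire1 KO cDC2. Its WT levels were 23, 29.9 and 24.1 CPM in cDC1, against 20.1 to 30.7 CPM in cDC2, and these overlapped. Its difference of 1.37 ± 0.19 in Xbp1-Ire1 KO exceeded the WT difference of 0.02 ± 0.17 by 1.35 ± 0.26 (edgeR, Benjamini-Hochberg adjusted p = 0.00487). Against the WT libraries named WT alone, the Ern1 excess was 1.31 and was not called (edgeR, Benjamini-Hochberg adjusted p = 0.056). A count over a whole gene can hold a transcript without its deleted part, so neither gene checks the labels.

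Most differences between the subsets were present with and without both genes. In Xbp1-Ire1 KO mice 5193 genes differed between cDC1 and cDC2, 42.6% of those tested, with 2497 higher in cDC1 (20.5%) and 2696 lower (22.1%). In Xbp1 KO mice 4766 genes were called (39.1%; 18.4% higher and 20.8% lower), and in WT mice 4971 (40.8%; 20.0% higher and 20.7% lower). Xbp1-Ire1 KO and WT share no library, and 3760 genes were called in both in the same direction, which is 72.4% of the Xbp1-Ire1 KO calls and 75.6% of the WT calls. Opposite directions were called for 27 genes. The medians over all tested genes were -0.04 in Xbp1-Ire1 KO and -0.04 in WT. TMM scaling brings such medians near 0, so they cannot show whether a comparison was shifted as a whole.

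The change of each subset difference, Xbp1-Ire1 KO minus WT, was then tested itself and was called for 272 genes (2.23%), 92 positive (0.755%) and 180 negative (1.48%). The count was 170 without the first cDC1 Xbp1-Ire1 KO library and 467 with DESeq2. Genes were sorted into classes from these tests. Among them, 2239 genes (18.4%) persisted: they were called in both genotypes in the same direction, the change was not called, and its 95% interval lay within 1 log2 unit either way. The difference widened for 96 genes (0.788%), shrank for 63 (0.517%), reversed for 27 (0.222%) and appeared, meaning called in Xbp1-Ire1 KO but not in WT, for 86 (0.706%); in each of these the change itself was called. Of the 63 that shrank, 39 were no longer called in Xbp1-Ire1 KO. The count that shrank was 39 without the first cDC1 WT library. Those that reversed and appeared were 15 and 49 without the first cDC1 Xbp1-Ire1 KO library, 16 and 57 without the second, and 14 and 49 without the second cDC2 Xbp1-Ire1 KO library. A further 3866 genes (31.7%) were called in at least 1 genotype but could be put in none of these classes, and 5808 were called in neither. The plot of the differences by class has the persisting genes along the line of equality, where the definition of the class places them.

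**Figure D1:**
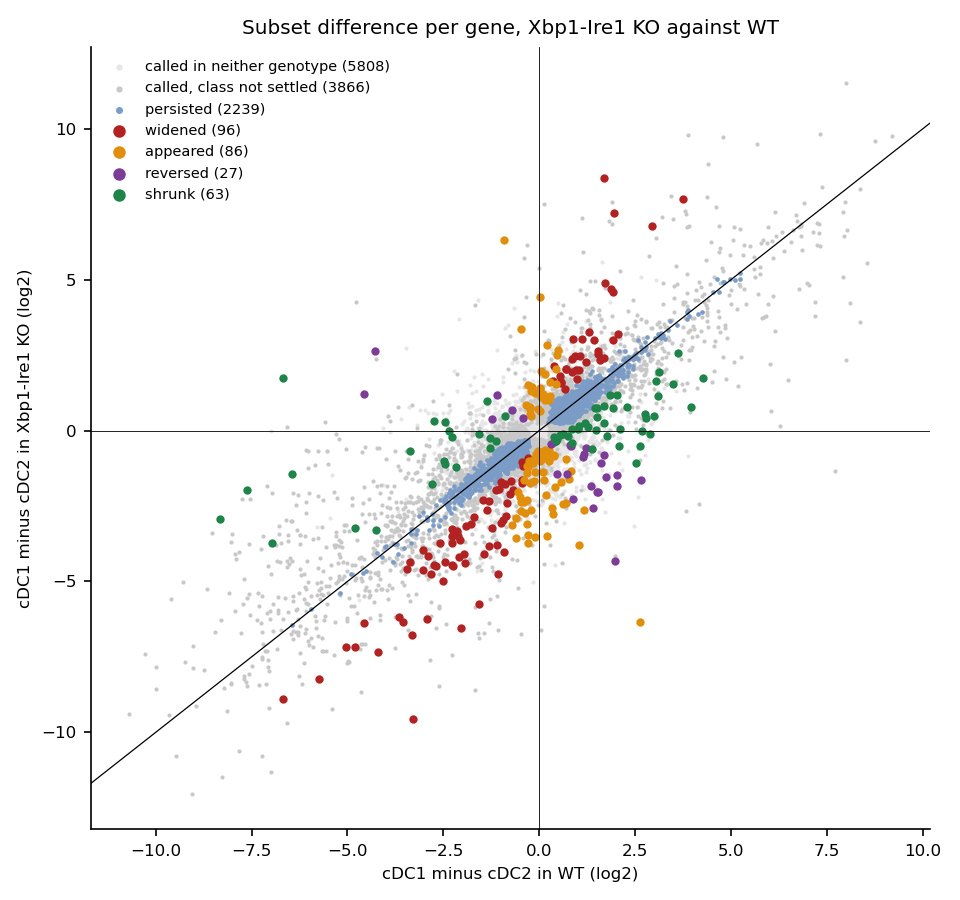
Subset difference (log2 cDC1 over cDC2) in Xbp1-Ire1 KO on the y axis against that in WT on the x axis, 1 point per tested gene, coloured by class; the diagonal marks equal differences. By the rules of the classes, the 2239 persisting genes lie along the diagonal and the 27 that reversed in the quadrants of opposite sign. Most of the 86 that appeared lie near 0 on the x axis.

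The genes whose difference changed were mostly those that moved in cDC1. Between Xbp1-Ire1 KO and WT, 1023 genes were called within cDC1 (8.40%), 398 higher (3.27%) and 625 lower (5.13%), and 3 within cDC2 (0.0246%). These 3 were all higher in Xbp1-Ire1 KO cDC2: Cox6a2, Plcb1 and Plcb4. At an unadjusted p under 0.05 the cDC2 count was 919, and DESeq2 called 3. The cDC2 count depended on the WT libraries: it was 736 against the fl-fl libraries alone and 3 against those named WT, while the cDC1 count was 1725 against the fl-fl libraries alone and 639 against those named WT. The cDC1 count was 535 without the first and 678 without the third cDC1 Xbp1-Ire1 KO library, and 562 without the first cDC1 WT library; the cDC2 count was 5 without the fourth cDC2 WT library. Of the 272 genes whose subset difference changed, the cDC1 value moved further than the cDC2 value for 270. These comparisons share libraries, so their values are set side by side and carry no separate support. For the 33 genes higher in cDC1 whose difference widened, the medians were 2.46 in Xbp1-Ire1 KO, 1.76 in Xbp1 KO and 1.12 in WT, with a median change of 1.43 within cDC1 and 0.07 within cDC2. For the 63 genes higher in cDC2 whose difference widened, the medians were -3.84 in Xbp1-Ire1 KO, -2.81 in Xbp1 KO and -2.04 in WT. In both directions the median in Xbp1 KO lay between the other genotypes. These genes were chosen by the gap between Xbp1-Ire1 KO and WT. That choice alone tends to place another genotype between them, so nothing is read from this order.

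The surface markers that define the subsets kept their sides. Xcr1, the receptor for XCL1 on cDC1, had 933, 978 and 931 CPM in Xbp1-Ire1 KO cDC1, against 7.21, 7.45 and 5.46 CPM in Xbp1-Ire1 KO cDC2. Clec9a, a lectin that binds actin exposed on dead cells, had 233, 199 and 226 CPM in Xbp1-Ire1 KO cDC1, against 10.8, 9.36 and 7.10 CPM in Xbp1-Ire1 KO cDC2. Cd8a, the CD8 alpha chain that splenic cDC1 carry in mice, had 663, 635 and 614 CPM in Xbp1-Ire1 KO cDC1, against 6.07, 4.91 and 4.19 CPM in Xbp1-Ire1 KO cDC2. For each of these markers the groups lay far apart. The subset difference of Xcr1 was 7.14 ± 0.34 in Xbp1-Ire1 KO and 6.71 ± 0.29 in WT. That of Clec9a was 4.58 ± 0.24 in Xbp1-Ire1 KO and 4.53 ± 0.21 in WT. For Cd8a it was 6.96 ± 0.49 in Xbp1-Ire1 KO and 6.73 ± 0.42 in WT. Clec9a persisted by the definition above. The change of Xcr1 was 0.43 ± 0.37 and that of Cd8a 0.23 ± 0.55, neither called, with intervals too wide for that class.

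On the cDC2 side, Sirpa, an inhibitory receptor for CD47, had 16.1, 61.1 and 13.1 CPM in Xbp1-Ire1 KO cDC1, against 1322, 1357 and 1341 CPM in Xbp1-Ire1 KO cDC2. Its difference was -5.47 ± 0.67 in Xbp1-Ire1 KO and -6.42 ± 0.70 in WT, with a change of 0.95 ± 0.78 that was not called. Clec4a4, the lectin DCIR2, had 0, 0 and 0.0671 CPM in Xbp1-Ire1 KO cDC1, against 115, 164 and 138 CPM in Xbp1-Ire1 KO cDC2. The cDC1 value of Clec4a4 rests on 1 read, so no ratio is given. Cd4, the co-receptor carried by many splenic cDC2 in mice, had 1.80, 5.29 and 2.21 CPM in Xbp1-Ire1 KO cDC1, against 238, 369 and 196 CPM in Xbp1-Ire1 KO cDC2. In WT, Cd4 stood at 11.6, 12.4 and 9.15 CPM in cDC1 and 234 to 307 CPM in cDC2, so its cDC1 trace was lower in Xbp1-Ire1 KO with no overlap. Its difference was -6.38 ± 0.41 in Xbp1-Ire1 KO and -4.56 ± 0.36 in WT, a change of -1.82 ± 0.47 (edgeR, Benjamini-Hochberg adjusted p = 0.0452). That last call was lost in 14 of 24 alternatives, with adjusted p between 0.055 and 0.34 from edgeR or limma after Benjamini-Hochberg adjustment, among them 10 that leave out 1 library each.

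**Figure D2:**
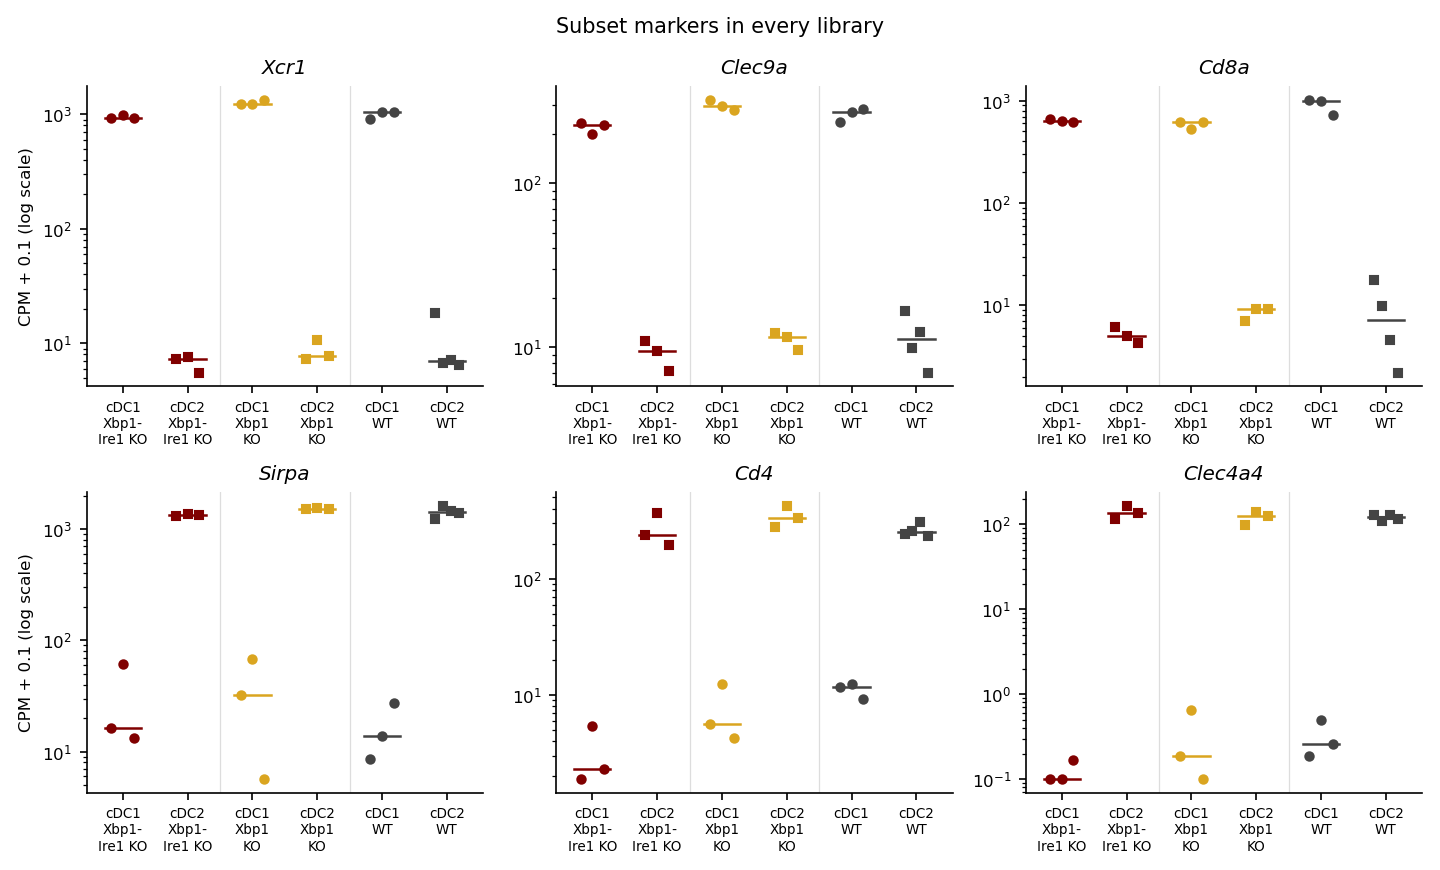
CPM on a log axis (with 0.1 added) of Xcr1, Clec9a, Cd8a, Sirpa, Cd4 and Clec4a4 in each library; circles are cDC1, squares cDC2, and short lines the medians, with Xbp1-Ire1 KO, Xbp1 KO and WT from left to right. In all 3 genotypes the cDC1 markers sit higher in cDC1 and the cDC2 markers higher in cDC2.

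The wider identity lists were read next. All 27 tested cDC1 identity genes were higher in cDC1 in Xbp1-Ire1 KO, in Xbp1 KO and in WT, beside the 20.5% of all tested genes called higher in Xbp1-Ire1 KO. Their median difference was 4.60 in Xbp1-Ire1 KO, 4.80 in Xbp1 KO and 4.68 in WT. Persistence was met by 13 of the 27. Irf8, a transcription factor that cDC1 require, had 4271, 4810 and 4339 CPM in Xbp1-Ire1 KO cDC1, against 195, 132 and 114 CPM in Xbp1-Ire1 KO cDC2. Its difference was 4.93 ± 0.22 in Xbp1-Ire1 KO and 4.81 ± 0.19 in WT. Ppt1, a lysosomal thioesterase, had 6021, 5365 and 6036 CPM in Xbp1-Ire1 KO cDC1, against 254, 241 and 225 CPM in Xbp1-Ire1 KO cDC2, and likewise persisted. The 1 identity gene of cDC1 whose difference changed was Ly75, the endocytic receptor DEC-205. It had 133, 172 and 131 CPM in Xbp1-Ire1 KO cDC1, against 37.6, 40.3 and 35.9 CPM in Xbp1-Ire1 KO cDC2, while WT cDC1 held 208 to 301 CPM. The Ly75 difference shrank to 1.94 ± 0.18 in Xbp1-Ire1 KO, against 3.13 ± 0.17 in WT (edgeR, Benjamini-Hochberg adjusted p = 0.00657).

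Of 28 cDC2 identity genes, 23 were lower in cDC1 in Xbp1-Ire1 KO and 2 were higher, Clec12a and Rbpj, beside 24 lower and 2 higher in WT. Of all tested genes, 22.1% were lower in cDC1 in Xbp1-Ire1 KO. The median differences of the 28 were -5.47 in Xbp1-Ire1 KO, -4.78 in Xbp1 KO and -4.57 in WT. The difference widened for 4 of the 28, Cd4, Cd209a, Esam and Cd7, and this count ran between 1 and 5 over the alternatives. Cd209a, a lectin of the DC-SIGN family, had 2.34, 0.902 and 0.604 CPM in Xbp1-Ire1 KO cDC1, against 656, 670 and 402 CPM in Xbp1-Ire1 KO cDC2. Esam, an adhesion molecule of Notch2-dependent splenic cDC2, had 4.32, 1.08 and 3.29 CPM in Xbp1-Ire1 KO cDC1, against 48.4, 74.5 and 49.5 CPM in Xbp1-Ire1 KO cDC2. In both cases it was the small cDC1 signal that was lower in Xbp1-Ire1 KO than in WT, where Esam had 15.5, 13.4 and 8.10 CPM in cDC1. The change was lost in 10 of 24 alternatives for Cd209a and in 8 of 24 for Esam. On the cDC2 side Cd22, an inhibitory sialic acid receptor, persisted at 11 to 11.7 CPM in Xbp1-Ire1 KO cDC1 and 156 to 240 CPM in Xbp1-Ire1 KO cDC2. Ptpro, a receptor tyrosine phosphatase, persisted too, at 3.22 to 4.95 CPM in Xbp1-Ire1 KO cDC1 and 97.1 to 131 CPM in Xbp1-Ire1 KO cDC2.

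The subset difference of many genes of the ATF4 and CHOP arm was larger in Xbp1-Ire1 KO than in WT. Of 38 tested members, 30 were higher in cDC1 and 3 lower in Xbp1-Ire1 KO, beside 25 and 6 in Xbp1 KO and 17 and 7 in WT. The median difference was 2.03 in Xbp1-Ire1 KO, 1.32 in Xbp1 KO and 0.53 in WT, against a median of -0.04 over all tested genes in Xbp1-Ire1 KO. The change against WT was positive and called for 24 of the 38 and negative for 0, beside 0.755% and 1.48% of all tested genes. That count of 24 ran between 20 and 27 over 24 alternatives. Within cDC1, 32 of the 38 were higher in Xbp1-Ire1 KO than in WT, with a median of 1.70. Within cDC2 none was called at a median of 0.09, with both kinds of WT library pooled. The mean log2 CPM of the list was 4.23 to 4.38 in Xbp1-Ire1 KO cDC2. It was 3.95 and 3.97 in fl-fl cDC2 and 4.28 and 4.37 in cDC2 named WT. The 3 members lower in cDC1 were Slc7a11, Ddit4 and Vegfa.

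Ddit3, which encodes CHOP, had 72.6, 52.3 and 49.4 CPM in Xbp1-Ire1 KO cDC1, against 5.21, 5.91 and 5.65 CPM in Xbp1-Ire1 KO cDC2. In Xbp1 KO it had 11.4, 12.9 and 22.0 CPM in cDC1 and 5.86 to 8.61 CPM in cDC2. WT held 3.41, 2.19 and 5.43 CPM in cDC1 and 2.68 to 7.26 CPM in cDC2, which overlapped. Thus a difference appeared that WT did not have: it was 3.38 ± 0.35 in Xbp1-Ire1 KO and -0.46 ± 0.33 in WT, a change of 3.84 ± 0.48 (edgeR, Benjamini-Hochberg adjusted p = 9.68e-05). Sesn2, a stress-induced inhibitor of mTORC1, reversed. It had 213, 213 and 172 CPM in Xbp1-Ire1 KO cDC1, against 146, 145 and 166 CPM in Xbp1-Ire1 KO cDC2, while WT cDC1, at 73.9, 60.5 and 59.6 CPM, lay below WT cDC2, at 114 to 171 CPM. Its difference was 0.39 ± 0.15 in Xbp1-Ire1 KO and -1.22 ± 0.14 in WT (change 1.61 ± 0.20; edgeR, Benjamini-Hochberg adjusted p = 9.68e-05). The positive Sesn2 difference in Xbp1-Ire1 KO was itself lost in 5 of 15 alternatives, 4 of them without 1 library, at values of 0.34 to 0.40. Cebpb, a transcription factor of the same arm, had 127, 122 and 120 CPM in Xbp1-Ire1 KO cDC1, against 133, 156 and 83.7 CPM in Xbp1-Ire1 KO cDC2. In WT, cDC1 had 16.7, 16.9 and 20.7 CPM and cDC2 48.3 to 143 CPM, so that a difference of -2.36 ± 0.34 in WT was no longer called in Xbp1-Ire1 KO (-0.02 ± 0.32).

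Enzymes of serine and folate metabolism were among the genes whose difference widened or appeared. Phgdh, the first enzyme of serine synthesis, had 449, 379 and 385 CPM in Xbp1-Ire1 KO cDC1, against 10.6, 15.8 and 14.3 CPM in Xbp1-Ire1 KO cDC2. Xbp1 KO cDC1 held 120, 111 and 182 CPM and WT cDC1 46.0, 44.5 and 36.2 CPM, while every cDC2 library lay between 10.6 and 15.8 CPM. The 3 cDC1 groups did not overlap with each other, and the cDC2 groups did. The difference was 4.90 ± 0.21 in Xbp1-Ire1 KO, 3.49 ± 0.20 in Xbp1 KO and 1.72 ± 0.17 in WT, a change against WT of 3.18 ± 0.26 (edgeR, Benjamini-Hochberg adjusted p = 6.41e-07). Shmt2, the mitochondrial serine hydroxymethyltransferase, had 284, 298 and 258 CPM in Xbp1-Ire1 KO cDC1, against 32.1, 30.3 and 39.7 CPM in Xbp1-Ire1 KO cDC2, and its difference was larger than in WT by 1.92 ± 0.29 (edgeR, Benjamini-Hochberg adjusted p = 4.77e-04). Mthfd2, a mitochondrial folate enzyme, had 379, 357 and 357 CPM in Xbp1-Ire1 KO cDC1, against 87.3, 106 and 106 CPM in Xbp1-Ire1 KO cDC2; in WT the subsets overlapped, at 102 to 117 CPM in cDC1 and 84.3 to 116 CPM in cDC2. For Mthfd2 the difference appeared, at 1.87 ± 0.13 in Xbp1-Ire1 KO and 0.15 ± 0.12 in WT.

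The difference also widened or appeared for a transporter of amino acids and for tRNA synthetases. Slc7a5, a transporter of large neutral amino acids, had 381, 409 and 322 CPM in Xbp1-Ire1 KO cDC1, against 50.1, 69.4 and 56.1 CPM in Xbp1-Ire1 KO cDC2. WT had 82.4, 102 and 48.0 CPM in cDC1 and 43.2 to 65.9 CPM in cDC2, which overlapped. The difference of 2.66 ± 0.22 in Xbp1-Ire1 KO exceeded that in WT by 2.18 ± 0.29 (edgeR, Benjamini-Hochberg adjusted p = 1.94e-04). Of 9 tRNA synthetase genes in the list, 7 widened, namely Sars, Gars, Nars, Cars, Mars, Aars and Tars. Sars, which charges serine tRNA, had 379, 353 and 349 CPM in Xbp1-Ire1 KO cDC1, against 89.3, 70.5 and 83.7 CPM in Xbp1-Ire1 KO cDC2. Outside the list, Xpot, which exports tRNA from the nucleus, and Hspa9, a mitochondrial chaperone, were classed as appeared, with Xbp1-Ire1 KO differences of 1.44 ± 0.15 for Xpot and 1.43 ± 0.12 for Hspa9. Asns, asparagine synthetase, had 247, 164 and 156 CPM in Xbp1-Ire1 KO cDC1, against 0.267, 1.73 and 0.911 CPM in Xbp1-Ire1 KO cDC2, and 9.30, 14.1 and 8.83 CPM in WT cDC1. Its difference of 7.68 ± 0.61 in Xbp1-Ire1 KO was called in each of 15 alternatives, but its excess over WT, 3.93 ± 0.90 (edgeR, Benjamini-Hochberg adjusted p = 0.0218), was lost in 9 of 24, 5 of them without 1 library, at values of 3.08 to 3.85.

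**Figure D3:**
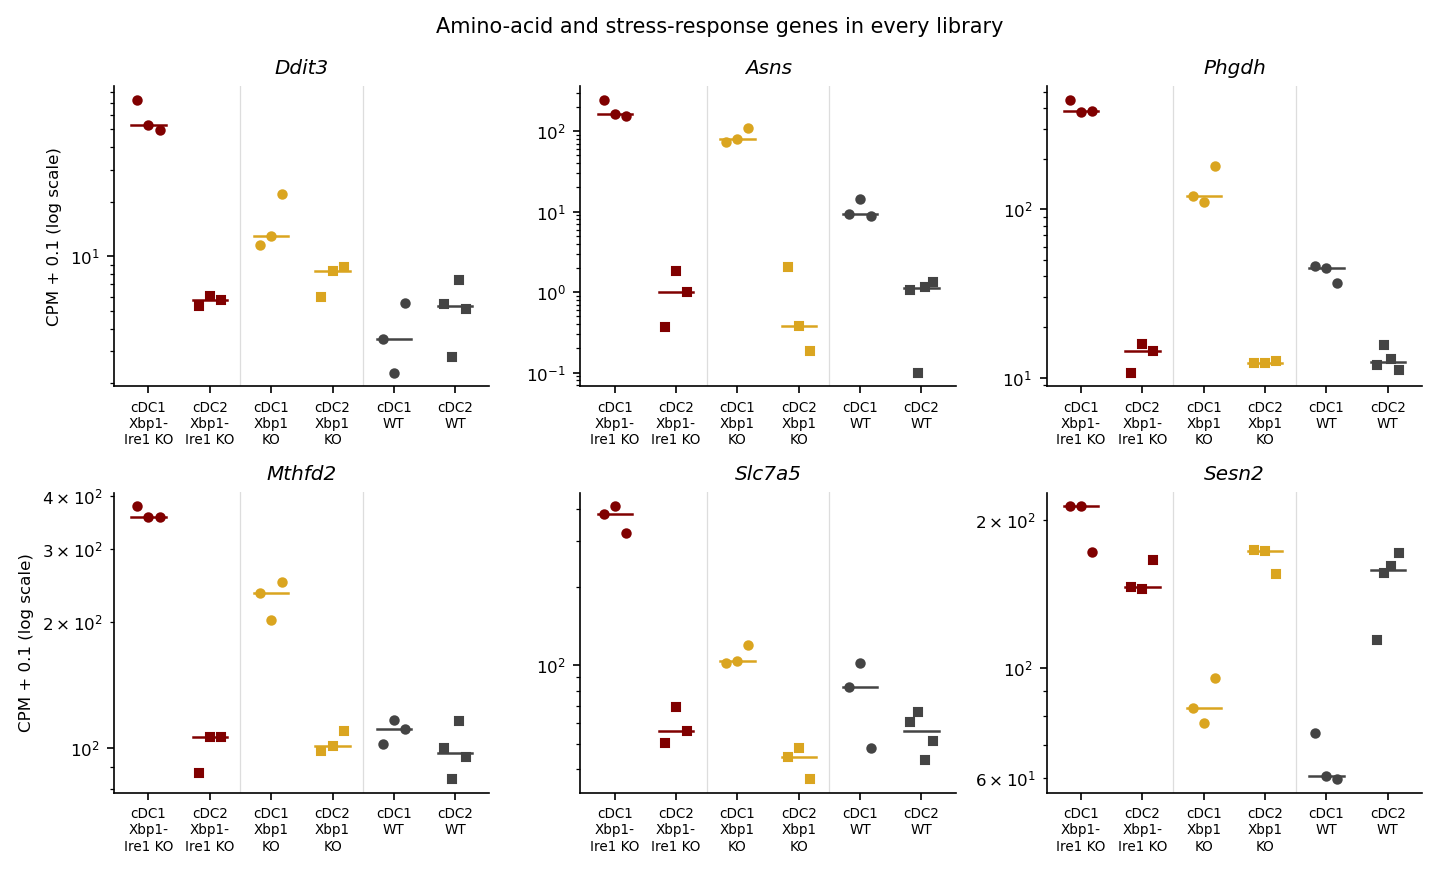
CPM on a log axis (with 0.1 added) of Ddit3, Asns, Phgdh, Mthfd2, Slc7a5 and Sesn2 in each library; circles are cDC1, squares cDC2, and short lines the medians, with Xbp1-Ire1 KO, Xbp1 KO and WT from left to right. In cDC1 each gene is highest in Xbp1-Ire1 KO, as for Ddit3 at 49.4 to 72.6 CPM, while both KO groups of cDC2 overlap with WT cDC2.

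The promoters of 4 genes of this group are shown because they carry the letters TGATGNAA, a form of the composite element that C/EBP and ATF proteins are known to bind, searched on both strands. Each runs 5′ to 3′ along the gene's strand from 250 bases before to 50 after the annotated start (RefSeq, build GRCm38.p6), with the match in capitals. Asns lies at chr6:7693160-7693459 on the minus strand, Trib3 at chr2:152344011-152344310 on the minus strand, Pck2 at chr14:55540016-55540315 on the plus strand and Gars at chr6:55037751-55038050 on the plus strand.
Asns: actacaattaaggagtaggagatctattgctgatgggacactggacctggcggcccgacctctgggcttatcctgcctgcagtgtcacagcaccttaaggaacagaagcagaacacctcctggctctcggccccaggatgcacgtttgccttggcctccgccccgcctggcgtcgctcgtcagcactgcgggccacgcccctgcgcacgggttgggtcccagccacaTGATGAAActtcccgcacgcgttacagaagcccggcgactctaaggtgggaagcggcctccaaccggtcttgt
Trib3: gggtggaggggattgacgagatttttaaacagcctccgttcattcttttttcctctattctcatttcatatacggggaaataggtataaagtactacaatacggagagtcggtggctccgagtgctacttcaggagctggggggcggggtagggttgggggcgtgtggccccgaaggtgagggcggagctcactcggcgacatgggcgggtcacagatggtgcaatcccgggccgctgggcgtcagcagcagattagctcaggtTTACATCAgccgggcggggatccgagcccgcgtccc
Pck2: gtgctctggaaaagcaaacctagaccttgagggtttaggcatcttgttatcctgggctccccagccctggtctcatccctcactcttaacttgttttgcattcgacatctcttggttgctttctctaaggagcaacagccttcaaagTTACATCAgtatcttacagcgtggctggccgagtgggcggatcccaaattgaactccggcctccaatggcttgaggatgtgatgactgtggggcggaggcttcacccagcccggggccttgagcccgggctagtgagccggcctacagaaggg
Gars: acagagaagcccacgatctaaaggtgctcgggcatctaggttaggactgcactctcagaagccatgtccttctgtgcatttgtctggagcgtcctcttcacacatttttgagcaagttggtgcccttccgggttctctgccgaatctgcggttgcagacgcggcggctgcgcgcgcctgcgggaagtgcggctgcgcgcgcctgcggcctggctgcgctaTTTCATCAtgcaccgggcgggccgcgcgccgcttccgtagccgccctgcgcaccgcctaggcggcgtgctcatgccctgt
The match begins 23 bases before the start in Asns, 103 before it in Pck2, 30 before it in Gars and at base 15 after it in Trib3. Trib3, a pseudokinase named after its values were seen, had 131, 105 and 88.7 CPM in Xbp1-Ire1 KO cDC1, against 0.801, 0 and 0 CPM in Xbp1-Ire1 KO cDC2. Pck2, the mitochondrial phosphoenolpyruvate carboxykinase, had 96.7, 95.9 and 90.2 CPM in Xbp1-Ire1 KO cDC1, against 20.8, 13.3 and 15.6 CPM in Xbp1-Ire1 KO cDC2. Genes were matched to RefSeq promoters by symbol or a synonym, counting a gene if any of its promoters held the letters. They were in 14 of 54 matched genes (25.9%) whose difference widened or appeared with cDC1 higher, out of 64 such genes, and in 10 of 31 (32.3%) of the 38 in the ATF4 and CHOP list, some of which are in both sets. Among all tested genes they were in 285 of 9810 (2.91%), and among all 27025 RefSeq genes in 1219 (4.51%). Of the genes that widened or appeared with cDC2 higher, 6 of 89 (6.74%) held them, but only 89 of 118 (75.4%) could be matched, under the 80% set for such a share, which is therefore void. Of 16 windows looked at gene by gene, 6 held a match (those shown and those of Chac1 and Yars). The other 10, of Ddit3, Phgdh, Mthfd2, Sars, Shmt2, Xpot, Mthfd1l, Nrp1, Sesn2 and Cebpb, held none. A match describes the letters and is neither a bound site nor a cause.

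Genes of homeostatic maturation ran the other way and were lower in cDC1. Of 47 tested members, 7 were higher and 31 lower in cDC1 in Xbp1-Ire1 KO, beside 10 and 27 in Xbp1 KO and 18 and 18 in WT. The median difference was -1.60 in Xbp1-Ire1 KO, -1.06 in Xbp1 KO and -0.12 in WT. The change against WT was negative and called for 22 of the 47, positive for 0, beside 1.48% and 0.755% of all tested genes, and the 22 ran between 17 and 29 over the alternatives. Within cDC1, 29 of the 47 were lower in Xbp1-Ire1 KO than in WT, at a median of -1.38. Within cDC2 none was called, at a median of 0.26, with both kinds of WT library pooled. The mean log2 CPM of the list was 5.88 to 6.22 in Xbp1-Ire1 KO cDC2. It was 5.78 and 5.64 in fl-fl cDC2 and 5.95 and 5.97 in cDC2 named WT. Of 25 immediate early genes, 11 were lower in cDC1 and 0 higher in Xbp1-Ire1 KO, beside 6 lower in WT and 22.1% of all tested genes called lower in Xbp1-Ire1 KO, and the 11 ran between 8 and 20 over the alternatives. The change was called for 1 of the 25, Dusp1, and lost in 8 of 24 alternatives, over which the count of negative calls ran between 0 and 13. Whether they bear on the maturation genes was not tested.

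Ccr7, the receptor that guides dendritic cells towards the T cell zone, had 119, 72.8 and 188 CPM in Xbp1-Ire1 KO cDC1, against 1507, 1841 and 1071 CPM in Xbp1-Ire1 KO cDC2. In Xbp1 KO it had 670, 461 and 410 CPM in cDC1 and 2034, 2075 and 1582 CPM in cDC2. In WT it had 866, 389 and 1372 CPM in cDC1 and 439, 330, 1616 and 1429 CPM in cDC2. The WT subsets overlapped, and within WT cDC2 the 2 fl-fl libraries were the low ones. A difference appeared, at -3.54 ± 0.54 in Xbp1-Ire1 KO and -0.12 ± 0.46 in WT, a change of -3.42 ± 0.68 (edgeR, Benjamini-Hochberg adjusted p = 0.00741). Fscn1, an actin-bundling protein of mature dendritic cells, had 36.5, 19.7 and 59.1 CPM in Xbp1-Ire1 KO cDC1, against 318, 269 and 186 CPM in Xbp1-Ire1 KO cDC2. WT had 435, 211 and 409 CPM in cDC1 and 241 to 321 CPM in cDC2, again with overlap, and the change was -3.10 ± 0.44 (edgeR, Benjamini-Hochberg adjusted p = 3.03e-04). Neither gene was called within cDC2 between Xbp1-Ire1 KO and WT, with both kinds of WT library pooled.

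Further members differed in how WT stood. Relb, a subunit of noncanonical NF-kB, had 50.9, 56.1 and 68.8 CPM in Xbp1-Ire1 KO cDC1, against 419, 453 and 392 CPM in Xbp1-Ire1 KO cDC2, and its difference widened, at -2.85 ± 0.14 in Xbp1-Ire1 KO and -1.71 ± 0.13 in WT. Tmem176a, an MS4A-like membrane protein, had 4.50, 3.79 and 6.91 CPM in Xbp1-Ire1 KO cDC1, against 436, 377 and 330 CPM in Xbp1-Ire1 KO cDC2; WT cDC1 held 94.3, 41.3 and 54.0 CPM. Its difference widened by -3.31 ± 0.34 (edgeR, Benjamini-Hochberg adjusted p = 1.19e-05). For Cd63, a tetraspanin of late endosomes, the direction reversed. It had 8.37, 6.68 and 19.3 CPM in Xbp1-Ire1 KO cDC1, against 65.8, 58.6 and 42.6 CPM in Xbp1-Ire1 KO cDC2, while in WT cDC1, at 49.9 to 107 CPM, lay above cDC2, at 34.6 to 48.4 CPM. The Cd63 difference was -2.28 ± 0.35 in Xbp1-Ire1 KO and 0.89 ± 0.30 in WT, a change of -3.17 ± 0.46 (edgeR, Benjamini-Hochberg adjusted p = 3.82e-04). Cd86, the costimulatory ligand of CD28, was among the 7 members that stayed higher in cDC1, at a mean of 557 CPM in Xbp1-Ire1 KO cDC1 and 134 CPM in Xbp1-Ire1 KO cDC2, and its difference of 2.05 ± 0.16 persisted.

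**Figure D4:**
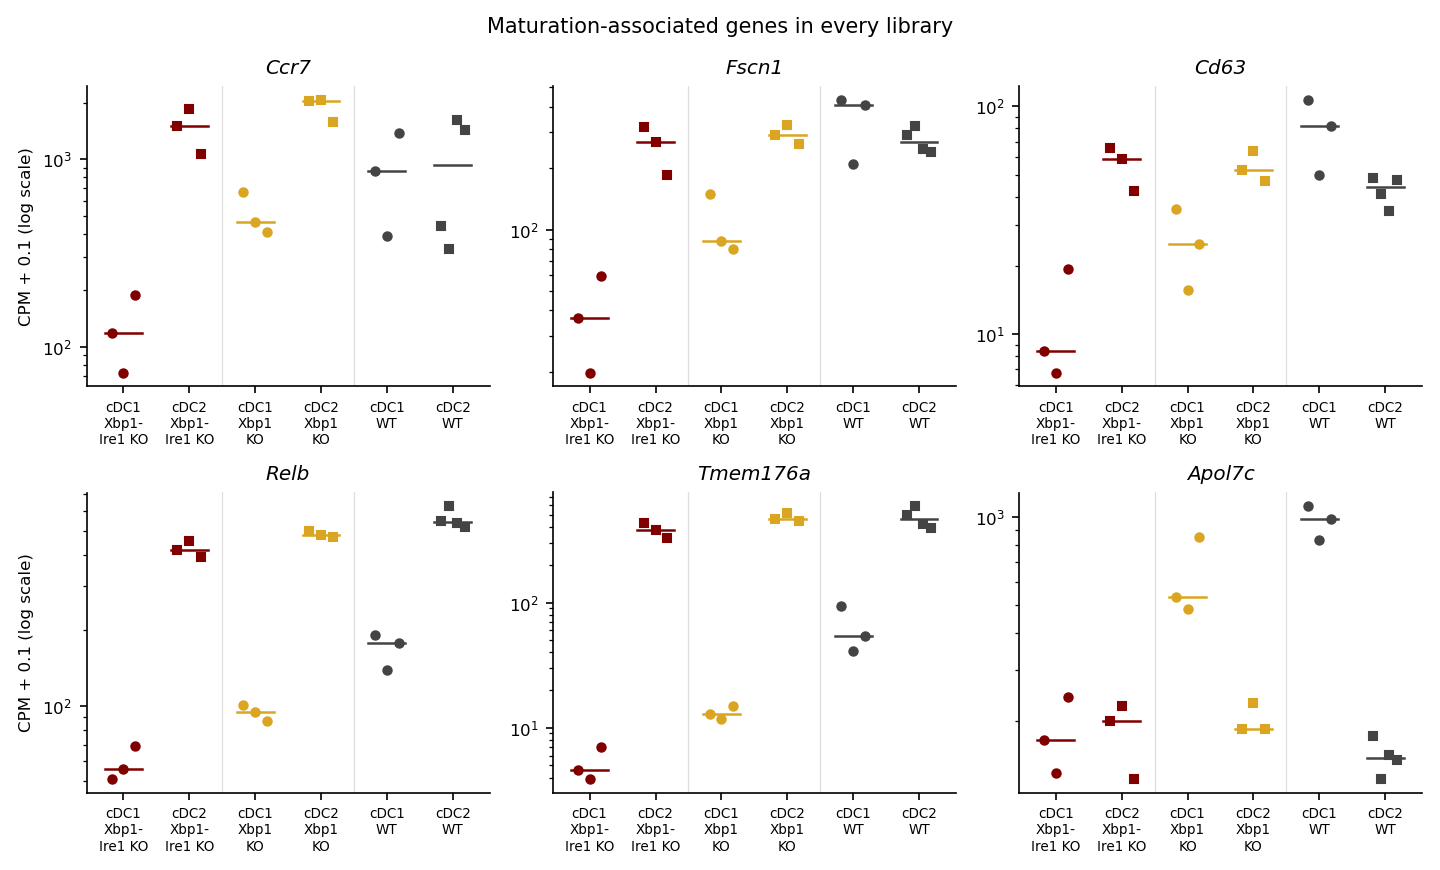
CPM on a log axis (with 0.1 added) of Ccr7, Fscn1, Cd63, Relb, Tmem176a and Apol7c in each library; circles are cDC1, squares cDC2, and short lines the medians, with Xbp1-Ire1 KO, Xbp1 KO and WT from left to right. In cDC1 the median of each gene is lowest in Xbp1-Ire1 KO, as for Ccr7 at 72.8 to 188 CPM, and the Xbp1 KO median lies between those of Xbp1-Ire1 KO and WT.

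Where WT had more in cDC1, the difference shrank for 41 genes. Apol7c, an apolipoprotein L family member, had 173, 133 and 243 CPM in Xbp1-Ire1 KO cDC1, against 201, 225 and 127 CPM in Xbp1-Ire1 KO cDC2. WT had 1090, 836 and 982 CPM in cDC1 and 127 to 178 CPM in cDC2. The subsets overlapped in Xbp1-Ire1 KO and stood apart in WT: the difference was -0.01 ± 0.23 in Xbp1-Ire1 KO and 2.68 ± 0.22 in WT, a change of -2.69 ± 0.32 (edgeR, Benjamini-Hochberg adjusted p = 8.39e-05). Dnase1l3, a secreted DNase, had 370, 341 and 363 CPM in Xbp1-Ire1 KO cDC1, against 330, 400 and 324 CPM in Xbp1-Ire1 KO cDC2, where WT cDC1 had 652 to 1214 CPM; its difference of 1.49 ± 0.17 in WT was not called in Xbp1-Ire1 KO. Ccl22, a chemokine for CCR4, had 21.1, 21.4 and 30.9 CPM in Xbp1-Ire1 KO cDC1, against 43.7, 36.3 and 24.6 CPM in Xbp1-Ire1 KO cDC2, and WT cDC1 held 74.6 to 128 CPM. Gclc, which makes the precursor of glutathione, stayed higher in cDC1, at 93.1, 68.9 and 113 CPM in Xbp1-Ire1 KO cDC1 and 40.9, 47.8 and 34.4 CPM in Xbp1-Ire1 KO cDC2. Its difference of 1.16 ± 0.22 was smaller than the WT difference of 3.10 ± 0.21 (edgeR, Benjamini-Hochberg adjusted p for the change = 5.21e-04). Plcb4, a phospholipase C, was the 1 gene of these 41 whose cDC2 value moved further than its cDC1 value. It had 29.6, 23.5 and 30.9 CPM in Xbp1-Ire1 KO cDC1, against 34.8, 44.9 and 40.9 CPM in Xbp1-Ire1 KO cDC2, and 8.19 to 13.9 CPM in WT cDC1 against 0.141 to 3.55 CPM in WT cDC2. Within cDC2 it was higher in Xbp1-Ire1 KO by 4.52 ± 0.43 (edgeR, Benjamini-Hochberg adjusted p = 9.29e-06). Xbp1 KO cDC2 held 38.0 to 47.2 CPM of Plcb4, which overlapped with Xbp1-Ire1 KO cDC2.

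Where WT had more in cDC2, the difference shrank for 22 genes. Ptger3, a receptor for prostaglandin E2, had 24.0, 15.2 and 14.0 CPM in Xbp1-Ire1 KO cDC1, against 71.8, 63.9 and 72.4 CPM in Xbp1-Ire1 KO cDC2. WT cDC1 had 0.171, 0.234 and 0.567 CPM and Xbp1 KO cDC1 0.170, 0.181 and 0.257 CPM, so cDC1 of both lay below 1 CPM. The difference was -1.97 ± 0.21 in Xbp1-Ire1 KO, -8.61 ± 0.36 in Xbp1 KO and -7.62 ± 0.33 in WT, a change against WT of 5.65 ± 0.40 (edgeR, Benjamini-Hochberg adjusted p = 1.25e-07). Emb, a partner of monocarboxylate transporters, had 28.7, 19.3 and 14.2 CPM in Xbp1-Ire1 KO cDC1, against 214, 182 and 182 CPM in Xbp1-Ire1 KO cDC2, with 6.15 to 7.05 CPM in WT cDC1. Inpp4b, a lipid phosphatase, had 25.4, 18.8 and 17.1 CPM in Xbp1-Ire1 KO cDC1, against 10.3, 25.1 and 14.0 CPM in Xbp1-Ire1 KO cDC2, and these overlapped. In WT, Inpp4b stood at 1.11 to 3.05 CPM in cDC1 and 12.2 to 20.9 CPM in cDC2, and its difference of -2.74 ± 0.36 there was not called in Xbp1-Ire1 KO.

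Of 29 ER chaperones and disulfide enzymes, 23 were higher and 1 lower in cDC1 in Xbp1-Ire1 KO, with a median difference of 1.37, beside 17 and 5 at 0.56 in Xbp1 KO and 25 and 0 at 1.05 in WT. Of all tested genes, 20.5% were higher and 22.1% lower in cDC1 in Xbp1-Ire1 KO. Changes against WT were called for 7 of the 29, 5 positive and 2 negative. Against the WT libraries named WT alone, the WT cDC1 side rests on 1 library, so no call is read from that fit. Among the positive ones, the change there was 0.72 for Dnajb11, 0.89 for Pdia4 and 0.59 for Pdia3. Pdia4, a protein disulfide isomerase, had 747, 692 and 587 CPM in Xbp1-Ire1 KO cDC1, against 97.4, 145 and 107 CPM in Xbp1-Ire1 KO cDC2, and 270 to 293 CPM in WT cDC1. Its difference of 2.54 ± 0.16 in Xbp1-Ire1 KO exceeded 1.53 ± 0.14 in WT (edgeR, Benjamini-Hochberg adjusted p for the change = 0.00974). Hsp90b1, the ER form of HSP90, also widened, at a mean of 3458 CPM in Xbp1-Ire1 KO cDC1 and 429 CPM in Xbp1-Ire1 KO cDC2. Txndc11, an ER thioredoxin-like protein, shrank instead, at a mean of 30.8 CPM in Xbp1-Ire1 KO cDC1, 30.0 CPM in Xbp1-Ire1 KO cDC2, 68.7 CPM in WT cDC1 and 34.1 CPM in WT cDC2. Of 40 XBP1 target genes known from earlier work, 23 were higher and 5 lower in Xbp1-Ire1 KO, beside 26 and 1 in WT, and changes were called for 5 upwards and 4 downwards. Against the WT libraries named WT alone, again with 1 cDC1 library, the change of Sel1l, 1 of those upwards, was 0.75. Edem2, a mannosidase-like protein of ER-associated degradation and 1 of the 4, reversed: its difference was -0.37 ± 0.13 in Xbp1-Ire1 KO and 0.39 ± 0.12 in WT.

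The groups in this paragraph had at most 2 called changes each of the subset difference against WT, where 2.23% of all tested genes had one. For MHC class I presentation (2 of 20) and lysosomal genes (2 of 35) that was a larger share than among all tested genes. The counts below stand beside 20.5% of all tested genes called higher and 22.1% lower in Xbp1-Ire1 KO. In WT these shares were 20.0% and 20.7%. Interferon-stimulated genes were mostly lower in cDC1, 19 of 28 in Xbp1-Ire1 KO and 18 in WT, with a median difference of -1.68 in Xbp1-Ire1 KO and -1.59 in WT. None had a called change by edgeR, an unadjusted p under 0.05 or a call by DESeq2. Rtp4, an interferon-induced chaperone for receptors, had 1.44, 1.92 and 0.537 CPM in Xbp1-Ire1 KO cDC1, against 93.0, 53.3 and 111 CPM in Xbp1-Ire1 KO cDC2. Pattern recognition receptors were lower in cDC1 for 17 of 24 in Xbp1-Ire1 KO and 16 in WT, with 0 called changes by edgeR or DESeq2 and 2 at an unadjusted p under 0.05; Tlr7, a sensor of single-stranded RNA, had 0.270, 2.47 and 0.470 CPM in Xbp1-Ire1 KO cDC1, against 108, 137 and 109 CPM in Xbp1-Ire1 KO cDC2. For MHC class I presentation, 10 of 20 were higher and 2 lower in cDC1 in Xbp1-Ire1 KO, beside 14 and 0 in WT. The change was called for 2 by edgeR, Pdia3 (positive, lost in 6 of 24 alternatives) and H2-D1 (negative, lost in 16 of 24), for 4 by DESeq2, and 8 had an unadjusted p under 0.05. The immunoproteasome subunit Psmb9 persisted at 731, 673 and 844 CPM in Xbp1-Ire1 KO cDC1 against 279, 175 and 234 CPM in Xbp1-Ire1 KO cDC2. For MHC class II presentation, 2 of 18 were higher and 7 lower in Xbp1-Ire1 KO, beside 5 and 8 in WT, with 0 called changes by edgeR or DESeq2 and 6 at an unadjusted p under 0.05. H2-Aa, a class II chain, had 7772, 7035 and 8158 CPM in Xbp1-Ire1 KO cDC1, against 9536, 9152 and 8387 CPM in Xbp1-Ire1 KO cDC2, a difference of -0.24 ± 0.14 that was not called. Lysosomal genes were higher for 9 and lower for 17 of 35 in Xbp1-Ire1 KO, beside 14 and 15 in WT, and 2 changes were called, Cd63 and Gusb. Gusb, beta-glucuronidase, had 499, 644 and 564 CPM in Xbp1-Ire1 KO cDC1, against 92.3, 116 and 81.5 CPM in Xbp1-Ire1 KO cDC2, with 922 to 1234 CPM in WT cDC1. Its change was not called against the WT libraries named WT (-0.87; edgeR, Benjamini-Hochberg adjusted p = 0.092). Among 32 proliferation genes, 7 were lower and 0 higher in cDC1 in Xbp1-Ire1 KO, near the 22.1% of all tested genes called lower, and the 7 ran between 2 and 14 over the alternatives. In WT 2 were lower and 2 higher, with 0 called changes by edgeR or DESeq2 and 1 at an unadjusted p under 0.05. At 3 or 4 libraries a group, a count of 0 does not show that differences were equal.

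The next lists stand beside 20.5% of all tested genes called higher and 22.1% lower in cDC1 in Xbp1-Ire1 KO. Of 23 chemokines and their receptors, 2 were higher and 12 lower in cDC1 in Xbp1-Ire1 KO, beside 5 and 11 in WT. The change was called for Ccr7, Ccl22, Ccl5 and Cxcl16, beside 2.23% of all tested genes. Ccl5, a chemokine that attracts T cells, had 10.7, 5.83 and 13.8 CPM in Xbp1-Ire1 KO cDC1, against 186, 209 and 163 CPM in Xbp1-Ire1 KO cDC2, while WT cDC1 held 44.7, 15.9 and 58.9 CPM. Its difference of -4.20 ± 0.40 in Xbp1-Ire1 KO differed from that in WT by -2.12 ± 0.49 (edgeR, Benjamini-Hochberg adjusted p = 0.0227), a call lost in 10 of 24 alternatives. Cxcl16, the ligand of CXCR6, had 215, 174 and 221 CPM in Xbp1-Ire1 KO cDC1, against 215, 168 and 173 CPM in Xbp1-Ire1 KO cDC2, and these overlapped. In WT cDC1, Cxcl16 stood at 294 to 451 CPM, above WT cDC2 at 110 to 192 CPM, and its change of -1.15 ± 0.26 was called (edgeR, Benjamini-Hochberg adjusted p = 0.0183) but lost in 3 of 24 alternatives. Of 22 genes of ER-associated degradation, 9 were higher and 4 lower in cDC1 in Xbp1-Ire1 KO, beside 7 and 2 in WT, and changes were called for Sel1l, Edem2 and Ube2g2. Sel1l, the partner of the ubiquitin ligase HRD1, had 494, 524 and 435 CPM in Xbp1-Ire1 KO cDC1, against 174, 259 and 222 CPM in Xbp1-Ire1 KO cDC2, while the WT subsets overlapped. Ube2g2, a ubiquitin-conjugating enzyme, changed the other way, and that call was lost in 11 of 24 alternatives. Of 19 genes of fatty acid synthesis and LXR targets, 5 were higher and 6 lower in Xbp1-Ire1 KO, beside 5 and 4 in WT and 20.5% higher and 22.1% lower among all tested genes in Xbp1-Ire1 KO. The change was called for Abcg1, a sterol exporter, but lost in 14 of 24 alternatives. Of 25 integrins and adhesion genes, 8 were higher and 7 lower in Xbp1-Ire1 KO, beside 11 and 8 in WT and the same shares of all tested genes. The change was called for Esam and Itgb2, and for Itgb2 it was lost in 10 of 24 alternatives, at values of 0.62 to 0.82.

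The subset difference in Xbp1-Ire1 KO was also set against that in Xbp1 KO, where Ire1 is not among the genes labelled as deleted. It differed for 261 genes (2.14%), 222 positive (1.82%) and 39 negative (0.320%), and for 248 without the third cDC1 Xbp1 KO library, which held 2298 CPM of pancreatic acinar transcripts where all other libraries held 1.70 to 10.2 CPM. The split depended on the fit: DESeq2 gave 328 positive and 136 negative, and the compared groups alone 283 positive and 109 negative. The negative count was 14 to 24 without the first cDC1 or the second cDC2 Xbp1-Ire1 KO library, the second cDC1 Xbp1 KO library or any 1 cDC2 Xbp1 KO library. Among 18 tested transcripts reported earlier as cut by the IRE1 RNase, 9 had a positive and 0 a negative change, and these counts were also 9 and 0 in each of 21 alternatives. Their subset differences had a median of 0.29 in Xbp1-Ire1 KO, -1.10 in Xbp1 KO and 0.32 in WT. In Xbp1-Ire1 KO 6 were higher and 3 lower in cDC1, beside 2 and 8 in Xbp1 KO and 8 and 5 in WT. 

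Itgb2, the beta-2 integrin chain, had 843, 963 and 918 CPM in Xbp1-Ire1 KO cDC1, against 1144, 1161 and 1154 CPM in Xbp1-Ire1 KO cDC2. Xbp1 KO had 34.8, 38.4 and 33.3 CPM in cDC1 and 719, 746 and 675 CPM in cDC2, and WT had 557, 402 and 327 CPM in cDC1 and 905 to 975 CPM in cDC2. Xbp1 KO cDC1 lay below all other groups and Xbp1-Ire1 KO cDC1 above WT cDC1. The difference was -0.34 ± 0.14 in Xbp1-Ire1 KO and -4.33 ± 0.16 in Xbp1 KO, a change of 3.98 ± 0.20 (edgeR, Benjamini-Hochberg adjusted p = 1.33e-10). Bloc1s1, a subunit of the lysosome-positioning complex BORC, had 53.0, 32.9 and 46.9 CPM in Xbp1-Ire1 KO cDC1, against 38.0, 31.3 and 27.8 CPM in Xbp1-Ire1 KO cDC2. In Xbp1 KO it had 2.04, 3.09 and 2.57 CPM in cDC1 and 21.3 to 28.2 CPM in cDC2, while the WT subsets overlapped, at 26.2 to 32.9 CPM in cDC1 and 24.5 to 31.4 CPM in cDC2. Its change was 3.74 ± 0.30 (edgeR, Benjamini-Hochberg adjusted p = 9.49e-08). Erp44, an ER thiol protein that retains cargo, had 213, 186 and 203 CPM in Xbp1-Ire1 KO cDC1, against 96.4, 111 and 105 CPM in Xbp1-Ire1 KO cDC2, and 25.4 to 38.0 CPM in Xbp1 KO cDC1. Its difference persisted between Xbp1-Ire1 KO and WT, at 0.95 ± 0.14 in Xbp1-Ire1 KO and 0.94 ± 0.13 in WT, and was -1.56 ± 0.14 in Xbp1 KO. The remaining 6 of the 9 were Tapbp, Hgsnat, Tpp1, Ergic3, Rpn1 and St3gal5, with changes between 1.50 and 3.27.

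Genes outside that list were also lower in Xbp1 KO cDC1 than in Xbp1-Ire1 KO cDC1. Rnf130, a ubiquitin ligase, had 166, 144 and 188 CPM in Xbp1-Ire1 KO cDC1, against 393, 349 and 396 CPM in Xbp1-Ire1 KO cDC2, with 6.17 to 9.35 CPM in Xbp1 KO cDC1 and 70.7 to 86.3 CPM in WT cDC1. The change against Xbp1 KO was 4.11 ± 0.20 (edgeR, Benjamini-Hochberg adjusted p = 6.66e-11). Slc1a5, a glutamine transporter, had 319, 324 and 288 CPM in Xbp1-Ire1 KO cDC1, against 109, 78.9 and 115 CPM in Xbp1-Ire1 KO cDC2, and 20.3 to 34.0 CPM in Xbp1 KO cDC1. It changed by 3.24 ± 0.25 against Xbp1 KO and by 1.34 ± 0.23 against WT, both called. Dnajb11, a cochaperone of BiP, had 305, 289 and 282 CPM in Xbp1-Ire1 KO cDC1, against 103, 120 and 115 CPM in Xbp1-Ire1 KO cDC2, and 60.5 to 70.5 CPM in Xbp1 KO cDC1, a change of 2.00 ± 0.15. Of the cDC1 identity genes, Naaa and Notch4 changed against Xbp1 KO. Naaa, an acid amidase, had 2446, 2486 and 2411 CPM in Xbp1-Ire1 KO cDC1, against 88.3, 70.7 and 64.9 CPM in Xbp1-Ire1 KO cDC2, with 717 to 857 CPM in Xbp1 KO cDC1 and 2051 to 2935 CPM in WT cDC1.

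**Figure D5:**
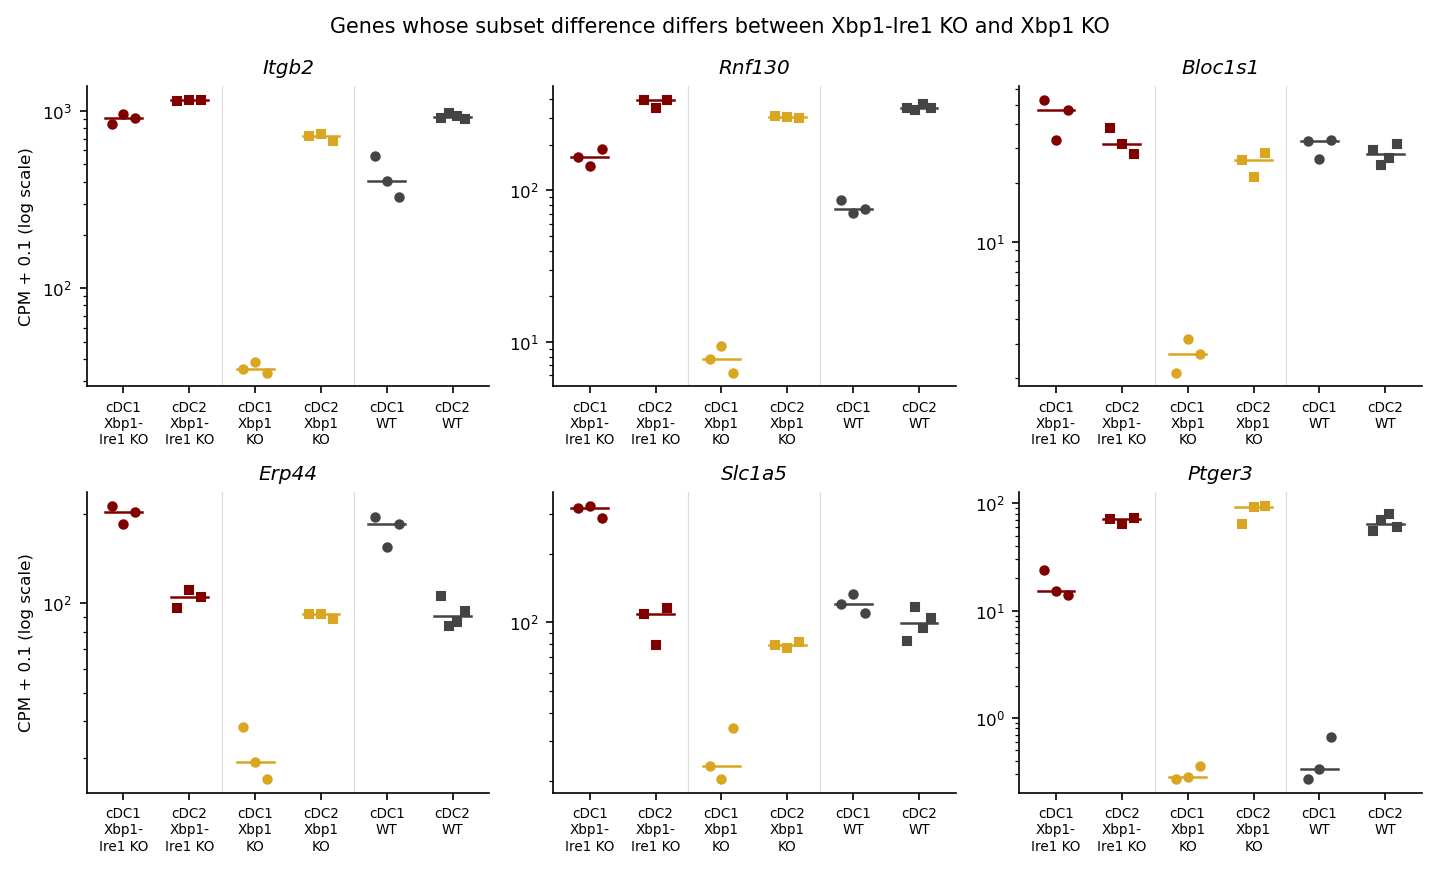
CPM on a log axis (with 0.1 added) of Itgb2, Rnf130, Bloc1s1, Erp44, Slc1a5 and Ptger3 in each library; circles are cDC1, squares cDC2, and short lines the medians, with Xbp1-Ire1 KO, Xbp1 KO and WT from left to right. Itgb2, Rnf130, Bloc1s1, Erp44 and Slc1a5 are lowest in Xbp1 KO cDC1, and Ptger3 is above 10 CPM in cDC1 of Xbp1-Ire1 KO only.

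The lists were also counted against Xbp1 KO, beside 1.82% of all tested genes with a positive and 0.320% with a negative change. The comparisons against Xbp1 KO and against WT share the Xbp1-Ire1 KO libraries. Whether list counts differ between them was not tested. ER chaperones had 12 positive and 0 negative changes of 29, XBP1 targets 9 and 0 of 40, ATF4 and CHOP targets 10 and 0 of 38, and maturation genes 0 and 1 of 47. Cholesterol synthesis genes had 5 and 0 of 24, beside 0 and 0 against WT by edgeR, where 5 had an unadjusted p under 0.05 and DESeq2 called 1. Fdps, farnesyl diphosphate synthase, had 124, 115 and 137 CPM in Xbp1-Ire1 KO cDC1, against 43.2, 37.0 and 51.8 CPM in Xbp1-Ire1 KO cDC2, while Xbp1 KO cDC1, at 36.0 to 43.1 CPM, overlapped with Xbp1 KO cDC2, at 33.4 to 39.3 CPM. The ATF4 count ran between 5 and 15 over the alternatives and that of the maturation genes between 1 and 13, so these 2 depended on the setting. Apol7c was the maturation gene called. Immediate early genes had 0 positive and 1 negative change of 25 against Xbp1 KO, at a median of -0.58. Their negative count ran between 1 and 14 over the alternatives, and their part in this comparison was not tested.

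Markers of other cells were measured in the same libraries and summed over those tested. Of all tested genes, 20.5% were called higher and 22.1% lower in cDC1 in Xbp1-Ire1 KO. Within cDC1, 3.27% were called higher in Xbp1-Ire1 KO than in WT. B cell markers summed to 45.7 to 85.6 CPM in Xbp1-Ire1 KO cDC1 and 70.3 to 100 CPM in Xbp1-Ire1 KO cDC2, and 0 of 7 were called higher and 3 lower in cDC1. T cell markers summed to 5.57 to 11.3 CPM in Xbp1-Ire1 KO cDC1 and 18.2 to 29.5 CPM in Xbp1-Ire1 KO cDC2, and 1 of 6 was called lower in cDC1. Monocyte markers, of which Lyz2 and Nr4a1 are also made by dendritic cells, summed to 1837 to 2531 CPM in Xbp1-Ire1 KO cDC1 and 4600 to 5978 CPM in Xbp1-Ire1 KO cDC2, with 1 of 8 higher and 3 lower in cDC1. Red pulp macrophage markers summed to 207 to 759 CPM in Xbp1-Ire1 KO cDC1 and 683 to 1297 CPM in Xbp1-Ire1 KO cDC2, with 1 of 10 lower in cDC1. Plasma cell markers summed to 18.5 to 29.3 CPM in Xbp1-Ire1 KO cDC1 and 54.8 to 197 CPM in Xbp1-Ire1 KO cDC2, with 2 of 4 lower in cDC1. Neutrophil markers ran the other way, at 20.5 to 72.2 CPM in Xbp1-Ire1 KO cDC1 and 1.46 to 13.5 CPM in Xbp1-Ire1 KO cDC2, with 1 of 5 higher in cDC1. In cDC1 of the other genotypes neutrophil markers summed to 0 to 11.6 CPM in Xbp1 KO and 0.854 to 7.97 CPM in WT, so the Xbp1-Ire1 KO cDC1 libraries did not overlap with them, and 1 of 5 was called higher in Xbp1-Ire1 KO cDC1 than in WT cDC1. Erythroid markers summed to 6.03 to 21.5 CPM in Xbp1-Ire1 KO cDC1, 2.12 to 3.60 CPM in Xbp1 KO cDC1 and 0.938 to 5.75 CPM in WT cDC1, with 1 of 3 called higher in Xbp1-Ire1 KO than in WT. Plasmacytoid dendritic cell markers summed to 166 to 215 CPM in Xbp1-Ire1 KO cDC1, 88.7 to 147 CPM in Xbp1 KO cDC1 and 123 to 140 CPM in WT cDC1. Of these 10, Cox6a2 alone was called higher in Xbp1-Ire1 KO than in WT cDC1, and it was also called higher within cDC2. Over the 10 the median change within cDC1 was -0.2, with 4 positive and 6 negative, so the list did not follow its sum. Monocyte markers in cDC1 of the other genotypes summed to 3464 to 4228 CPM in Xbp1 KO and 1231 to 2826 CPM in WT. For B cell, T cell, NK cell, red pulp macrophage and plasma cell markers the Xbp1-Ire1 KO and WT cDC1 ranges overlapped. Among Xbp1-Ire1 KO cDC1, the second library had the highest mean log2 CPM of red pulp macrophage markers, 5.5 against 3.6 and 3.52. It was also highest for neutrophil (3.73 against 1.91 and 2.06), erythroid (2.74 against 0.48 and 1.26), monocyte, NK cell and plasmacytoid markers. For B cell, T cell and plasma cell markers the first library was highest. Between the subsets of Xbp1-Ire1 KO, plasmacytoid markers were called higher in cDC1 for 2 of 10 and lower for 3, and NK cell and erythroid markers for none of 4 and 3. No read was found in any of the 6 libraries for Klra8 (NK cells), Hbb-bt, Hba-a1 and Hba-a2 (erythroid cells) and Tnfrsf17 (plasma cells), in the cDC1 libraries for Vcan (monocytes) and in the cDC2 libraries for Retnlg (neutrophils). The part of these transcripts in the results was not tested. Ifi205, Apol7c, Clec4a4 and the H2 genes belong to families of near-identical members, and no counting program is named in the sources used here, so reads may be split among relatives.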

How the data were processed

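Bulk RNA-seq libraries of sorted spleen cDC1 and cDC2 were analysed as raw counts per gene symbol, deposited by the authors in 1 table per subset. Per the submitters' processing notes, the tools named are FastQC 0.11.4, Trimmomatic 0.35, TopHat2 2.1.0, SAMtools 0.1.19 and limma 3.42.2, with build mm10; neither the counting program nor the annotation is named in the sources used here. The authors' normalized tables were made per subset and were not used. The tables hold the same 24421 symbols and were joined on them. Of these, 23384 are gene names in GENCODE M21.

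Genes were kept by edgeR's filterByExpr (minimum count 10, minimum total 15), leaving 12185. Libraries were scaled by TMM, and a quasi-likelihood model with 1 mean per group was fitted to all 19 libraries in edgeR 4.0.16 under R 4.3.3. The SE is the log2 difference divided by the square root of F. Calls are at a Benjamini-Hochberg adjusted p under 0.05 over all tested genes. The fits were tested on simulated data with known changes in Xbp1-Ire1 KO cDC1 alone. The test of the subset difference in Xbp1-Ire1 KO recovered 60% of 2-fold and 91% of 4-fold changes. The test of its change against WT recovered 28% of 2-fold and 78% of 4-fold changes. Library totals of 10606864 to 16209469 counts limit the precision of genes with low counts.

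Named genes were the deleted genes, the 6 markers, the largest subset differences, up to 8 genes per class and direction, and up to 4 per list and comparison; predicted genes and receptor segments were left out. Aars, Cd86, Clec12a, Ddit4, Ergic3, Nars, Notch4, Plcb1, Rbpj, Slc7a11, Tapbp, Tars, Trib3 and Vegfa fall outside that rule and were named after their values were seen. Members, lists and classes were chosen with earlier results of these data known. The 28 lists were described by counts and medians. The alternatives were DESeq2 1.42.0, limma-voom (limma 3.58.1), other scalings and filters, either kind of WT library, compared groups only, a replicate block and leaving out each library. Deviations from the group means of same-numbered WT libraries had r of 0.132, 0.258 and 0.202 for replicates 1, 2 and 3 in the titles. In both subsets replicates 1 and 2 are fl-fl and replicate 3 is named WT. These r therefore cannot tell pairing from the kind of name. The count of WT subset calls was 4970 with the block and 4971 without.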

Additional observations from a re-analysis of the deposited data

Results flagged for a closer look

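In the WT cDC2 group of 4 libraries, a single library stood far from the other 3 for 13 of 158 sets of values tested by Dixon's 95% criterion, which chance alone meets in about 1 of 20 sets. Replicate 1 was the highest for Xcr1 at 18.3 CPM, Ppt1 at 294 CPM, Cd36 at 36.1 CPM and Pdia5 at 8.06 CPM. It was also the highest for Trib3 at 2.03 CPM, Asprv1 at 25.2 CPM, Ifitm3 at 599 CPM and Plcb1 at 0.0814 CPM. The Plcb1 value lies near the floor of counting, where the criterion says little. The same library was the lowest for Sars at 67.6 CPM. Xcr1, Ppt1 and Cd36 are cDC1 identity genes. Replicate 3 was the lowest for Psmb9 at 192 CPM and Oas1a at 33.2 CPM, and replicate 4 for Fdps at 30.3 CPM. The total count of 1 library of the group stood apart at 13377931. The subset difference was not the same in Xbp1-Ire1 KO as in WT for 272 genes, by the test of that difference in edgeR, and not the same as in Xbp1 KO for 261 genes. Outside the comparisons, 18 pancreatic acinar transcripts summed to 2298 CPM in the third cDC1 Xbp1 KO library and to at most 10.2 CPM elsewhere.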

How the results depend on the processing

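Of 15981 values of single genes recomputed under the alternatives, 15454 kept direction and side of the threshold, 379 lost the call, 148 gained it and 0 reversed. With DESeq2 the change against WT was called for 467 genes (171 positive, 296 negative) and that against Xbp1 KO for 464, with 145 widened, 134 shrunk and 152 appeared. With only the compared groups in the fit, the change against WT gave 174 calls (105 negative), the change against Xbp1 KO 392, cDC1 between Xbp1-Ire1 KO and WT 575, shrunk 36 and appeared 48. Against the WT libraries named WT, the WT subset difference gave 3156, cDC1 639, persisted 1264 and widened 55; against the fl-fl ones cDC1 gave 1725 and cDC2 736. For these the cause was not tested, beyond the smaller number of libraries. Between same-numbered cDC1 and cDC2 libraries, r was -0.061, 0.046 and -0.043 in Xbp1-Ire1 KO and -0.013, 0.076 and 0.235 in Xbp1 KO. These values do not settle whether replicates were paired. With the replicate block Xbp1-Ire1 KO gave 5475 calls, the change against WT 344 and shrunk 105. The change against Xbp1 KO then gave 388 (274 positive, 114 negative). Blocked by the numbers in the sample descriptions, the change against WT gave 285. That against Xbp1 KO gave 365 (191 positive, 174 negative). The block could not be fitted within 1 subset. Leaving out 1 library gave 4405 to 4914 calls in Xbp1-Ire1 KO, 4158 to 5087 in WT, 3956 to 4252 in Xbp1 KO, 170 to 298 for the change against WT (60 to 113 positive, 110 to 194 negative), 194 to 261 for that against Xbp1 KO, 535 to 1348 within cDC1, 3 to 5 within cDC2, and 1847 to 2244 persisted, 64 to 89 widened, 39 to 93 shrunk, 14 to 33 reversed and 49 to 96 appeared. The change against WT had 170 calls (110 negative) without the first cDC1 Xbp1-Ire1 KO library and 110 negative calls without the second cDC2 one, and 39 shrank without the first cDC1 WT library. Of 76 named genes with a called change against WT, 56 kept the call in every alternative. With 3 or 4 libraries a group, small changes of a subset difference can go uncalled.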
